A study of Mus musculus with 57 samples.

Results

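The subject is the distal colon of INSRfl/fl mice after azoxymethane and dextran sulfate sodium (AOM+DSS), set against the colon of untreated INSRfl/fl mice. The samples were chosen by their genotype and treatment labels: 10 AOM+DSS and 10 untreated samples, 20 of the 57 in the series. All 20 came from C57BL/6 mice whose insulin receptor gene (Insr) is flanked by loxP sites, with no Cre named, so the receptor gene is intact in both groups; the mice were adults of 18 to 24 weeks and the treatment protocol names females. Treated mice received 7.4 mg/kg AOM by injection into the abdomen, then 3% DSS for 7 days in week 2, and were killed in week 5. The labels also describe this as 3 weeks past the DSS cycle. Whether their week numbers leave that long depends on how weeks are counted. The remaining samples, used here to share the estimate of each gene's spread and for the comparison of genotypes that ends the results, are tumors and the colon of villin-CRE-INSR-/- mice, in which Cre under the villin promoter inactivates Insr in the intestinal epithelium (called knockout mice below). Each sample is a piece of bowel wall hybridised to 1 Affymetrix array, and values are log2 expression per gene for 22180 genes.

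AOM is an alkylating carcinogen, and DSS is a detergent-like polysaccharide that strips the colon epithelium. Together they are the usual mouse model of cancer arising in inflamed bowel. After DSS is withdrawn, the bare mucosa is first covered by flattened cells, crypts are rebuilt over weeks, and monocytes, neutrophils and lymphocytes enter the wall. Near the anus the columnar lining meets stratified squamous epithelium, which after DSS injury can extend over the neighbouring colon. In whole tissue, more cells of a type and more RNA per cell cannot be told apart, and this holds for every result below.

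Array medians lay between 6.52 and 6.68 log2 units, and each array's mean correlation with the rest of its group ranged from 0.985 to 0.992. The deposited values had been quantile-normalized across arrays, which draws medians together, and the correlations span all genes. Neither figure therefore tests array quality. Defining genes of the colon lining were bright throughout: Slc26a3 was 12.3 or more in every untreated and 12.1 or more in every AOM+DSS sample, and the mucin gene Muc2 13.1 and 13.04 or more. Smooth muscle genes, which mark how much muscle wall a piece held, had list means of 10.6 to 10.97 in untreated and 10.3 to 11.1 in AOM+DSS colon, and none of 13 passed the test. Samples differed far more in squamous epithelium genes. The mean of 20 such genes was 5.42 to 5.54 in 7 untreated samples, but 8.68 in untreated replicate 1, 7.91 in replicate 3 and 6.40 in replicate 4. It was 6.53 to 9.46 in 9 AOM+DSS samples and 5.49 in AOM+DSS replicate 6. Most gene groups below are therefore also given from a model that holds this list mean as a covariate. Squamous genes make up this covariate, so their own values with it carry no information. The covariate is itself higher after AOM+DSS, so a call lost with it does not tie a gene to the squamous genes.

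Of 22180 genes, 5044 passed an adjusted p of 0.05 (22.7%), 2715 of them higher after AOM+DSS (12.2%) and 2329 lower (10.5%). The median change over all genes was -0.039. The split between directions depended on how arrays were scaled: 53.8% of the calls were higher as deposited, 72.9% after shifting all probe sets to 1 median, 36.1% after shifting the 22180 genes to 1 median and 43.0% after a further quantile normalization. Changes under about 0.1 are therefore not given a direction below. Large changes went mostly up: 210 genes rose at least 2-fold (0.947%) and 15 fell at least 2-fold (0.0676%). In 182 genes (0.821%) every AOM+DSS sample lay above every untreated sample, and in 52 genes (0.234%) every AOM+DSS sample lay below. With the squamous covariate 2845 genes passed, 1716 higher (7.74%) and 1129 lower (5.09%), and 166 of the 210 genes passed as higher, 111 of them still at least 2-fold. Leaving out any 1 of the 20 samples gave between 4213 and 5579 calls.

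**Figure D1:**
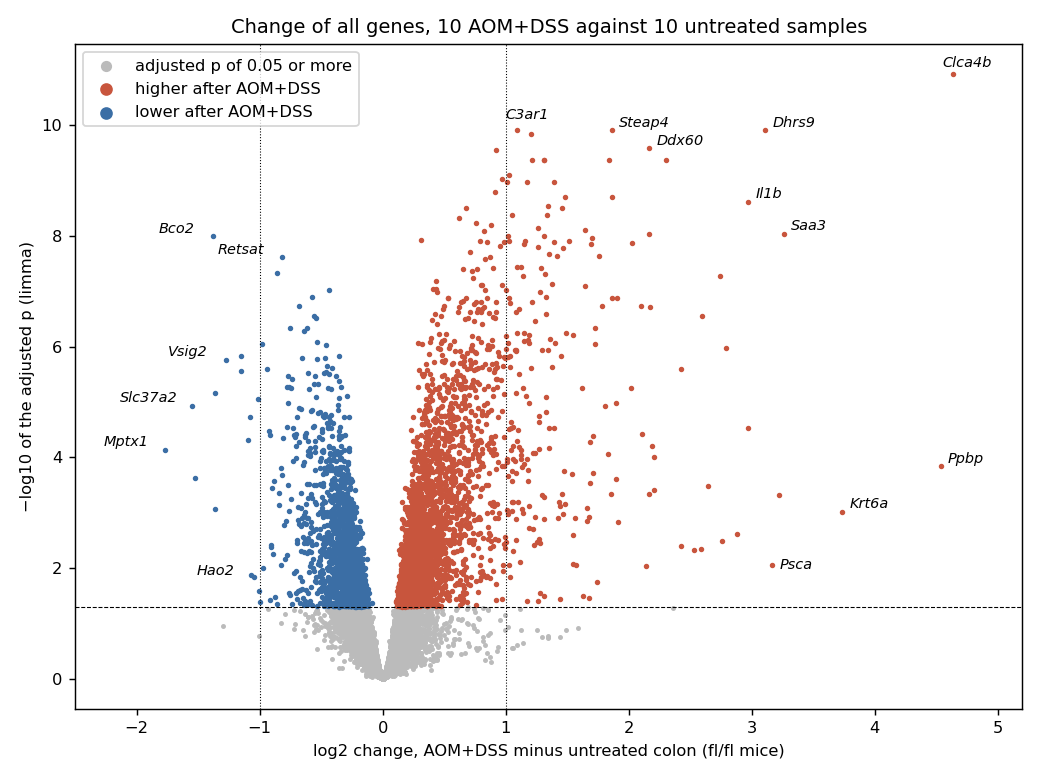
Each point is 1 of 22180 genes, with the log2 change between AOM+DSS and untreated fl/fl colon on the x axis and -log10 of limma's adjusted p on the y axis; dotted lines mark 2-fold changes and the dashed line the threshold. Rises reach 4.64 (Clca4b) while the largest fall is -1.77 (Mptx1).

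Insr itself was checked first. Its level was 8.70, 9.01 and 9.16 in untreated and 8.28, 8.51 and 8.94 in AOM+DSS colon, lowest, median and highest, an order kept for all values below. It fell by 0.40 ± 0.098 (± is the standard error from limma here and below; adjusted p = 0.00235), with the groups overlapping. Among 16 genes of the insulin and insulin-like growth factor (IGF) pathway, 5 rose and 1 fell, Insr being the latter. The risers were the growth factor Igf1, the binding proteins Igfbp3, Igfbp4 and Igfbp5, and the receptor-binding adaptor Grb10. Igf1 was 6.86, 7.05 and 7.33 in untreated and 7.42, 8.11 and 8.96 in AOM+DSS colon, with no overlap, a rise of 0.98 ± 0.12 (adjusted p = 1.28e-08). Igfbp4 and Igfbp5, secreted proteins that bind IGF, rose by 0.58 ± 0.11 and 0.70 ± 0.15 (adjusted p = 6.16e-05 and 0.000533). The related receptor Igf1r had a difference of 0.069 ± 0.092 (adjusted p = 0.619) and the adaptor Irs2 one of 0.043 ± 0.14 (adjusted p = 0.845). Further quantile normalization or a shift of the 22180 genes to 1 median left 5 rises and gave 4 falls in this list.

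The largest rise in the colon was in a surface epithelial gene. Clca4b, a member of the calcium-activated chloride channel regulator family of secreted proteins, was 5.94, 6.71 and 9.62 in untreated and 9.46, 12.04 and 12.7 in AOM+DSS colon. It was above the highest untreated sample in 9 of 10 AOM+DSS samples, AOM+DSS replicate 1 being the exception, and untreated replicates 9 and 10 were the highest of theirs. The rise was 4.64 ± 0.41, or 24.9-fold (adjusted p = 1.2e-11), and with the squamous covariate 4.56 ± 0.47. Of 6 measured members of the family 4 rose. Clca4a was 9.49, 10.3 and 10.9 in untreated and 10.7, 11.4 and 12.1 in AOM+DSS colon and rose by 1.17 ± 0.23 (adjusted p = 0.000106). Clca3a1 rose by 0.54 ± 0.13, and Clca2, which is found in squamous epithelium, by 0.68 ± 0.21, a call that the squamous covariate ended (adjusted p = 0.932). The goblet cell member Clca1 had medians of 13.2 in untreated and 13.1 in AOM+DSS colon (adjusted p = 0.29).

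Genes known from repairing or fetal-like gut epithelium rose in part. Of 23 measured, 13 rose and none fell, 9 passing with the squamous covariate, and the list's median change was 0.44. Plet1, a surface protein of epithelial progenitors, was 6.93, 7.24 and 8.61 in untreated and 7.50, 10.6 and 11.9 in AOM+DSS colon, a rise of 2.79 ± 0.41 (adjusted p = 1.07e-06); AOM+DSS replicate 1 again lay within the untreated range. Anxa1 and Anxa8, annexins that bind membranes in a calcium-dependent way, rose by 0.97 ± 0.13 and 1.11 ± 0.17 (adjusted p = 7.63e-08 and 3.14e-06). The membrane protein gene Emp1 rose by 1.19 ± 0.17, the laminin subunit gene Lamb3 by 0.47 ± 0.069 and the secreted chaperone gene Clu by 0.46 ± 0.13 (adjusted p = 8.48e-07, 8.64e-07 and 0.00775). Emp1 and Anxa1 lay above the untreated range in 9 and 8 samples, Clu in 1. Outside the list, Cwh43, a membrane protein gene among the smallest p values, was 6.24, 6.68 and 7.19 in untreated and 7.16, 9.20 and 9.67 in AOM+DSS colon and rose by 2.30 ± 0.24 (adjusted p = 4.18e-10).

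A minority of retinoid genes passed the test. Vitamin A reaches the gut as retinol or as carotene, is oxidised in steps to retinal and retinoic acid, and retinoic acid then acts through nuclear receptors. Of 17 measured genes 4 rose and 1 fell, against 12.2% and 10.5% of all genes, and the list's median change was 0.037. Dhrs9, a retinol dehydrogenase, was 5.31, 6.13 and 7.08 in untreated and 7.07, 9.52 and 10.2 in AOM+DSS colon and rose by 3.11 ± 0.30 (adjusted p = 1.24e-10). Aldh1a3, which makes retinoic acid, was 7.07, 7.29 and 7.74 in untreated and 7.79, 9.63 and 10.1 in AOM+DSS colon, with no overlap, and rose by 1.91 ± 0.25 (adjusted p = 1.31e-07). Both lay far above the untreated range in most mice. The retinol dehydrogenase Rdh10 rose by 0.84 ± 0.10 and the retinol transporter Stra6 by 1.35 ± 0.24 (adjusted p = 1.28e-08 and 2.91e-05), while Aldh1a2, another enzyme that makes retinoic acid, had a difference of 0.18 ± 0.16 (adjusted p = 0.447). Bco2, which cleaves carotenoids, was 7.63, 8.28 and 8.57 in untreated and 6.23, 6.73 and 7.67 in AOM+DSS colon and fell by 1.38 ± 0.16 (adjusted p = 1.02e-08). Retsat, which saturates retinol and lies outside the list, was 9.04, 9.19 and 9.37 in untreated and 7.95, 8.33 and 8.89 in AOM+DSS colon, with no overlap, and fell by 0.82 ± 0.10 (adjusted p = 2.45e-08). All 4 rises and the fall of Bco2 passed with the squamous covariate.

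**Figure D2:**
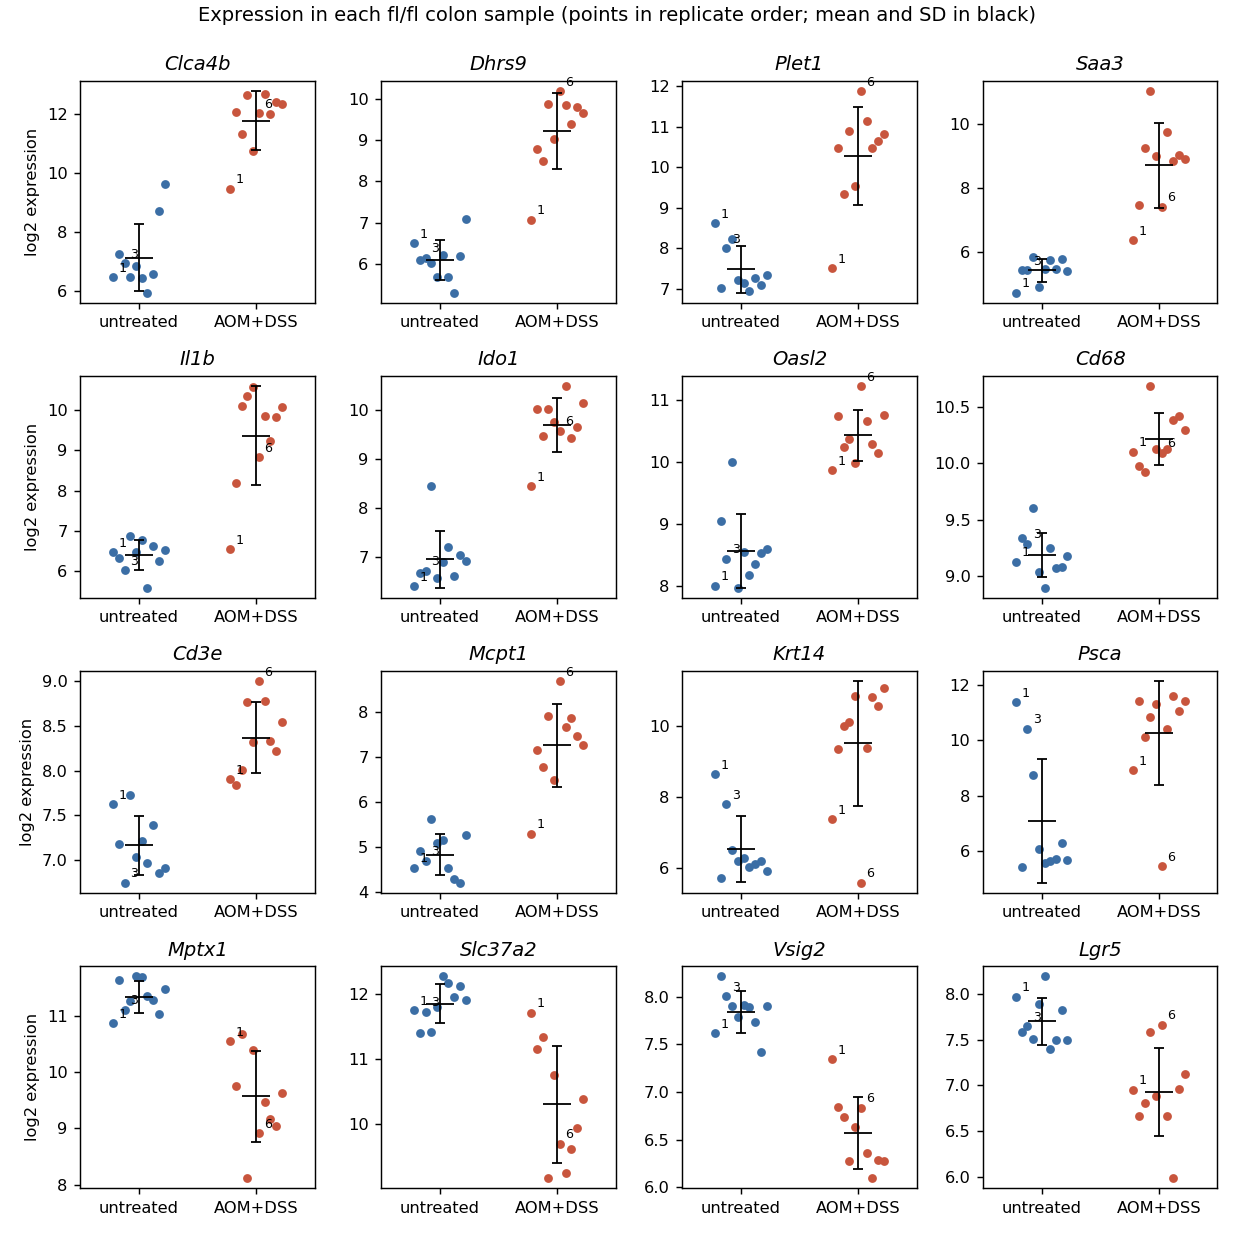
Log2 expression (y axis) of 16 genes in each of 10 untreated and 10 AOM+DSS fl/fl colon samples, with points in replicate order, the mean and SD in black, and replicates 1 and 3 (untreated) or 1 and 6 (AOM+DSS) numbered. Clca4b rose from a median of 6.71 to 12.04, while Psca was at 5.45 in AOM+DSS replicate 6 and 11.4 in untreated replicate 1.

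The genes of the mature absorptive cell split. Among 21 transport genes of surface colonocytes 6 fell and 3 rose. Slc37a2, a sugar-phosphate exchanger, was 11.4, 11.8 and 12.3 in untreated and 9.17, 10.2 and 11.7 in AOM+DSS colon and fell by 1.55 ± 0.26 (adjusted p = 1.19e-05); AOM+DSS replicate 1 lay inside the untreated range and replicates 2 and 3 just below it. The ion pump regulator Fxyd4 fell by 1.52 ± 0.31 and the magnesium channel Trpm6 fell by 1.15 ± 0.17 (adjusted p = 0.000242 and 1.48e-06). In contrast, 2 subunits of the epithelial sodium channel and the kinase that activates it rose. Scnn1g was 7.33, 8.29 and 9.36 in untreated and 8.73, 9.45 and 9.88 in AOM+DSS colon and rose by 1.08 ± 0.26 (adjusted p = 0.00129), Sgk1 rose by 0.86 ± 0.17 (adjusted p = 0.000189), and Scnn1b, named after its value was seen, by 0.63 ± 0.16 (adjusted p = 0.00292). These 3 passed with the squamous covariate. The chloride-bicarbonate exchanger Slc26a3 had medians of 12.7 in untreated and 12.5 in AOM+DSS colon (adjusted p = 0.874), the water channel Aqp8 had a difference of -0.47 ± 0.21 (adjusted p = 0.0999) and the carbonic anhydrase Car4 one of -0.34 ± 0.24 (adjusted p = 0.324). Fitting only the fl/fl colon groups gave Aqp8 and Car4 adjusted p of 0.0236 and 0.0137.

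Among 21 other colonocyte differentiation genes 2 rose and 2 fell, a share near the 22.7% of all genes that passed. The surface keratin Krt20 rose by 0.36 ± 0.12 (adjusted p = 0.0246; 0.0549 without AOM+DSS replicate 7), the peptide hormone precursor Guca2a fell by 0.57 ± 0.17 and the steroid dehydrogenase Hsd17b2 fell by 0.48 ± 0.10 (adjusted p = 0.01 and 0.000611); these 3 calls were lost with the squamous covariate, which gave 0.38 ± 0.14 for Krt20, -0.26 ± 0.17 for Guca2a and -0.27 ± 0.10 for Hsd17b2 (adjusted p = 0.0591, 0.31 and 0.0677). Cdx2, the transcription factor that sets intestinal identity, had a difference of -0.47 ± 0.22 (adjusted p = 0.114). A further 3 genes of the colon lining were among the largest falls. St8sia5, a sialyltransferase, was 7.92, 8.77 and 9.75 in untreated and 6.37, 7.32 and 8.51 in AOM+DSS colon and fell by 1.37 ± 0.22, Cpm, a surface carboxypeptidase, fell by 1.15 ± 0.18, and Hao2, a peroxisomal oxidase, fell by 1.07 ± 0.33 (adjusted p = 7.02e-06, 2.77e-06 and 0.0133). Hao2 did not overlap between groups, yet did not pass with the squamous covariate (adjusted p = 0.363).

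Of 20 goblet cell genes 3 rose and 1 fell, a share near the 22.7% of all genes, and with the squamous covariate 7 passed as higher, against 7.74% of all genes in that model. The fall was Vsig2, a cell surface protein, at 7.42, 7.90 and 8.21 in untreated and 6.10, 6.50 and 7.34 in AOM+DSS colon, with no overlap and a change of -1.27 ± 0.19 (adjusted p = 1.73e-06). Spink4 and Sytl2, a protease inhibitor and a secretion factor of goblet cells, rose by 0.71 ± 0.13 and 0.40 ± 0.11 (adjusted p = 2.7e-05 and 0.00535). The mucin Muc2 lay at a median of 13.2 untreated and 13.3 after AOM+DSS (adjusted p = 0.298; 0.027 with the squamous covariate), and the mucus protein gene Zg16 had a difference of 0.060 ± 0.23 (adjusted p = 0.873). Enteroendocrine genes gave 3 rises among 16 and tuft cell genes 1 among 13, against 12.2% of all genes.

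Lgr5, the receptor that marks cycling crypt base stem cells, was 7.39, 7.62 and 8.19 in untreated and 5.99, 6.92 and 7.66 in AOM+DSS colon and fell by 0.77 ± 0.13 (adjusted p = 1.06e-05); the groups overlapped, AOM+DSS replicates 4 and 6 lying inside the untreated range. Of 15 genes 5 fell and 1 rose. Between 4 and 8 fell under the other scalings, and 2 passed as lower with the squamous covariate. Lrig1, a growth factor receptor antagonist, and Znrf3, a ubiquitin ligase that dampens Wnt signalling, changed by -0.36 ± 0.084 and -0.37 ± 0.097 (adjusted p = 0.00103 and 0.00404), Lrig1 with no overlap but not with the squamous covariate. The Wnt target Axin2 had a difference of -0.11 ± 0.099, and Ascl2 and Smoc2, both genes of the crypt base, of -0.27 ± 0.12 and -0.23 ± 0.095 (adjusted p = 0.457, 0.0848 and 0.0778). Prom1, a membrane protein of progenitors, rose by 0.69 ± 0.14 with no overlap (adjusted p = 0.000138). Of 17 DNA replication and mitosis genes none rose and 1 fell, with a median change of -0.060.

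Junction proteins set how leaky the lining is. Of 16 claudin and junction genes 4 fell and 2 rose (3 to 6 and 2 to 4 under the other scalings). The barrier claudin Cldn8 was 10.6, 11.03 and 11.5 in untreated and 9.92, 10.2 and 10.8 in AOM+DSS colon and fell by 0.77 ± 0.16 (adjusted p = 0.000317). The pore-forming claudin Cldn2 fell by 0.41 ± 0.11 and occludin, Ocln, fell by 0.25 ± 0.056 (adjusted p = 0.00667 and 0.000692), the former not passing with the squamous covariate. The desmosomal cadherin Dsc2 rose by 0.50 ± 0.080 without overlap (adjusted p = 4.78e-06). Cldn1 rose by 0.91 ± 0.21 (adjusted p = 0.00124), not with the covariate (adjusted p = 0.232), and Cldn4 and Cldn15 had differences of -0.20 ± 0.12 and -0.015 ± 0.22 (adjusted p = 0.243 and 0.97).

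Genes by which colonocytes burn fatty acids, above all the butyrate made by bacteria, went down. Of 20 measured 11 fell, 8 passed as lower with the squamous covariate and none rose; the median change was -0.24. Under the other scalings 8 to 13 fell, and 1 rose after shifting all probe sets to 1 median. Echs1 and Hadh, enzymes of the beta-oxidation spiral, changed by -0.41 ± 0.063 and -0.30 ± 0.059 with no overlap in either (adjusted p = 2.42e-06 and 0.000162). Acads, which starts the oxidation of butyrate, fell by 0.48 ± 0.11, and Slc16a1, a monocarboxylate transporter, fell by 0.41 ± 0.082 (adjusted p = 0.000974 and 0.000173). The butyrate transporter Slc5a8 was 11.96, 12.1 and 12.2 in untreated and 11.2, 11.8 and 11.9 in AOM+DSS colon; the groups did not overlap, but the difference of -0.34 ± 0.14 did not pass in the shared model (adjusted p = 0.0753) and had an adjusted p of 0.00245 in a fit on the compared groups alone. Pparg, the nuclear receptor that acts on such genes, had a difference of 0.10 ± 0.12 (adjusted p = 0.548). Outside the list, Gcdh and Mecr, mitochondrial enzymes of amino acid breakdown and fatty acid synthesis, were among the smallest p values and changed by -0.54 ± 0.076 and -0.62 ± 0.088 (adjusted p = 3.01e-07 and 4.58e-07). Smyd3, a histone methyltransferase, fell by 0.43 ± 0.057 with no overlap (adjusted p = 9.5e-08).

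Of 18 respiratory chain genes 5 fell and 1 rose. The number that fell went up to 10 or down to 2 with the scaling. With the squamous covariate 1 passed as lower and 1 as higher. The subunit genes Ndufv1 and Cox4i1 changed by -0.26 ± 0.063 and -0.28 ± 0.077 (adjusted p = 0.00211 and 0.00497; 0.0485 and 0.161 with the covariate), and the coactivator Ppargc1a had a difference of -0.062 ± 0.12 (adjusted p = 0.731). Of 27 genes that detoxify drugs and carcinogens 5 fell and 1 rose, a share near the 22.7% of all genes that passed. The carboxylesterase Ces1f was 8.10, 8.63 and 8.98 in untreated and 6.97, 7.76 and 8.55 in AOM+DSS colon and fell by 0.88 ± 0.18 (adjusted p = 0.000267). Sult1a1, a sulfotransferase, fell by 0.80 ± 0.19 without overlap and the xenobiotic receptor Nr1i2 fell by 0.46 ± 0.11 (adjusted p = 0.00167 and 0.00166), neither passing with the covariate. The cytochrome Cyp2c55 had a difference of -0.41 ± 0.37 and the efflux pump Abcg2 of -0.047 ± 0.13 (adjusted p = 0.438 and 0.825). For Cyp2c55 that error draws on all 6 groups, and its SD was 0.20 in untreated and 0.30 in AOM+DSS colon. Genes of cholesterol synthesis rose in 9 of 15 cases, among them Cyp51 by 0.70 ± 0.12, Sc5d by 0.32 ± 0.046 and Sqle by 0.34 ± 0.092 (adjusted p = 7.51e-06, 8.87e-07 and 0.00451).

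AOM damages DNA by adding methyl groups to guanine, and p53 is the factor that cells activate on such damage. Of 18 p53 targets and alkylation repair genes 3 rose and 1 fell, a share near the 22.7% of all genes that passed. Mgmt, the protein that removes methyl groups from guanine, fell by 0.23 ± 0.072 (adjusted p = 0.0141), or -0.21 ± 0.081 with the squamous covariate (adjusted p = 0.0759), and the call was also lost with a shift of all probe sets to 1 median. The cell cycle inhibitor Cdkn1a and the p53 regulator Mdm2 had differences of -0.082 ± 0.071 and 0.16 ± 0.098 (adjusted p = 0.418 and 0.227), and the p53 target Trp53inp1 rose by 0.46 ± 0.093 (adjusted p = 0.000233).

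**Figure D3:**
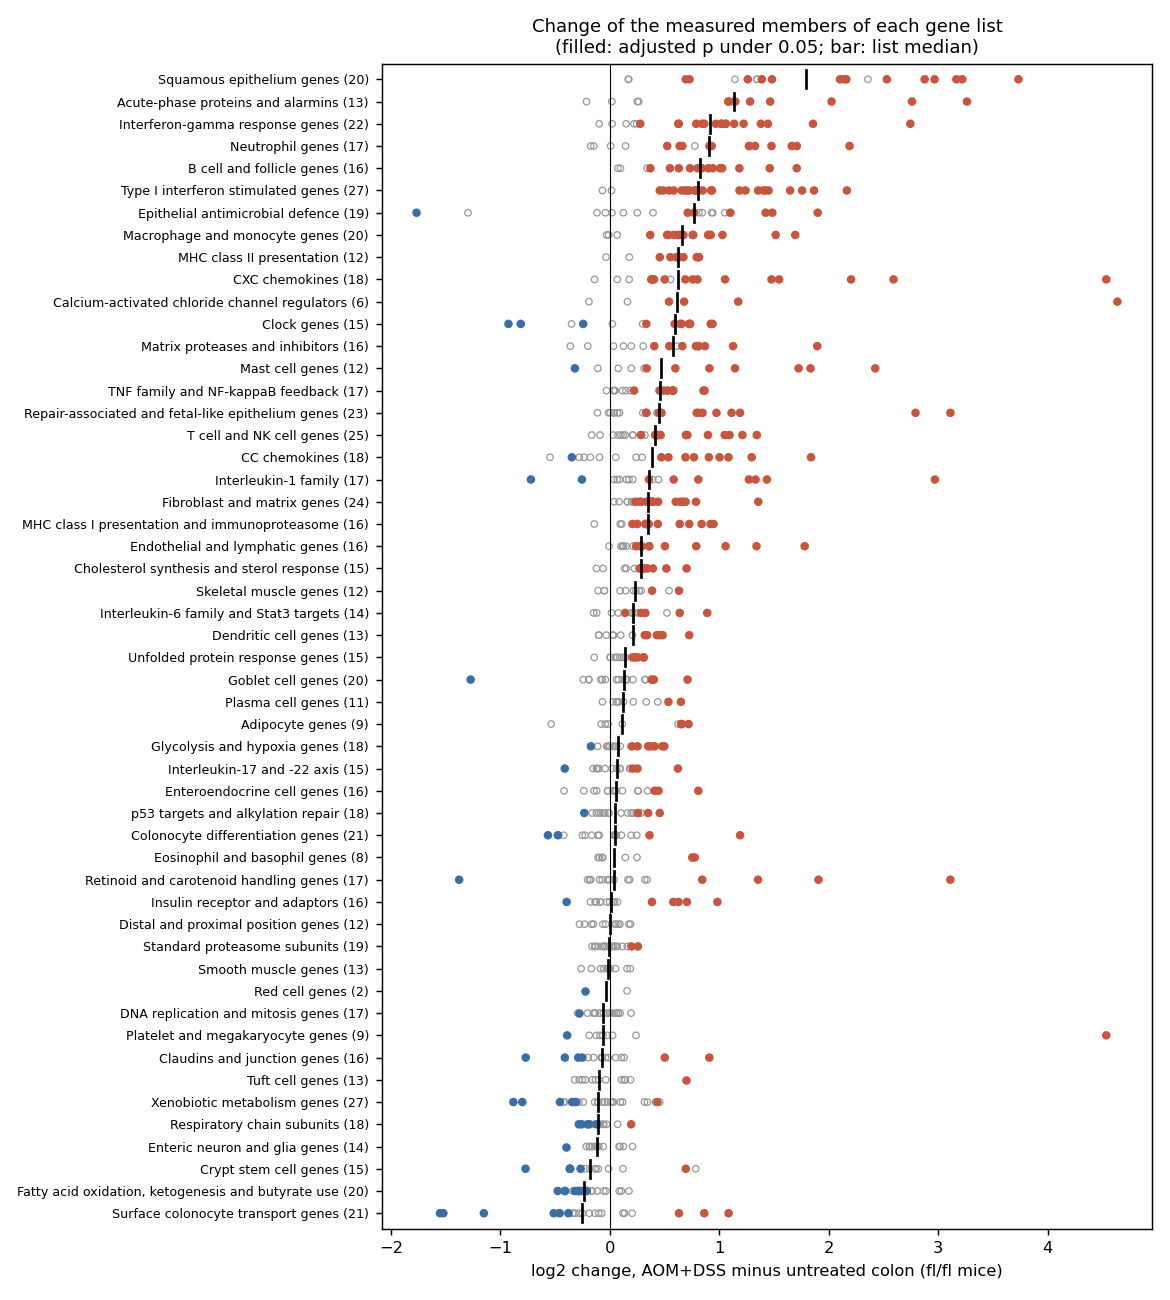
Log2 change (x axis) of each measured member of 52 gene lists (rows, with the number measured), filled where the adjusted p is under 0.05, red higher and blue lower, with a bar at the list median. Squamous genes have the largest median change (1.79), and surface transport genes the lowest (-0.25).

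Acute-phase proteins, normally made in quantity by the liver but also by injured epithelium, were among the largest rises. Of 13 measured acute-phase and alarmin genes 9 rose, 5 with the squamous covariate. Saa3, a serum amyloid A, was 4.75, 5.47 and 5.86 in untreated and 6.37, 8.95 and 11.01 in AOM+DSS colon, with no overlap, a rise of 3.26 ± 0.39, or 9.6-fold (adjusted p = 9.17e-09). The protease inhibitor Serpina3n was 8.93, 9.14 and 9.65 in untreated and 9.29, 11.4 and 12.4 in AOM+DSS colon and rose by 2.02 ± 0.24 (adjusted p = 1.37e-08). AOM+DSS replicate 1 was lowest for both genes. Cp, which carries copper, and Lrg1, a secreted glycoprotein, rose without overlap by 1.15 ± 0.14 and 1.14 ± 0.23, and the iron-sequestering lipocalin Lcn2 by 1.08 ± 0.22 (adjusted p = 1.43e-08, 0.000148 and 0.000196). S100a8, a calcium-binding protein of neutrophils and also of squamous epithelium, rose by 1.28 ± 0.33 (adjusted p = 0.0035) but not with the covariate (adjusted p = 0.0899).

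Antimicrobial genes of the epithelium changed unevenly, with 6 of 19 higher and 1 lower. Nos2 and Duox2, which make nitric oxide and hydrogen peroxide, rose by 1.90 ± 0.32 and 0.77 ± 0.15 (adjusted p = 1.03e-05 and 8.71e-05). Nos2 was 5.43, 5.90 and 6.43 in untreated and 6.26, 7.96 and 8.84 in AOM+DSS colon, above the untreated range in 9 samples. The antiprotease Slpi rose by 1.49 ± 0.16, lysozyme Lyz2, a macrophage gene, by 0.71 ± 0.098 and the bactericidal phospholipase Pla2g2a by 1.10 ± 0.24 (adjusted p = 1.96e-09, 2.36e-07 and 0.000645). Reg3g, a bactericidal lectin, ranged from 4.68 to 11.02 within the AOM+DSS group and did not pass (adjusted p = 0.35). The fall was Mptx1, a pentraxin of the gut epithelium and the largest fall of all genes, at 10.9, 11.3 and 11.7 in untreated and 8.12, 9.54 and 10.7 in AOM+DSS colon, with no overlap and a change of -1.77 ± 0.33 (adjusted p = 7.31e-05). Outside the list, and named for its small p, Steap4, a metalloreductase that takes part in iron and copper uptake, was 5.84, 6.45 and 7.12 in untreated and 7.36, 8.42 and 9.26 in AOM+DSS colon, a rise of 1.86 ± 0.18 without overlap (adjusted p = 1.24e-10).

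Of 17 measured members of the interleukin-1 (IL-1) cytokine family 7 rose and 2 fell (4 and 1 with the squamous covariate). Il1b, the secreted cytokine of activated macrophages, was 5.59, 6.47 and 6.86 in untreated and 6.54, 9.84 and 10.6 in AOM+DSS colon and rose by 2.97 ± 0.33 (adjusted p = 2.45e-09); AOM+DSS replicate 1, at 6.54, was the sample within the untreated range. Il1a rose by 1.33 ± 0.23 and Il1r2, the decoy receptor, by 1.27 ± 0.24 (adjusted p = 1.54e-05 and 7.19e-05). Il18, which colonocytes make constitutively, fell by 0.72 ± 0.13 (adjusted p = 3.99e-05). The receptor antagonist Il1rn and the alarmin Il33 had differences of 0.17 ± 0.086 and 0.44 ± 0.18 (adjusted p = 0.137 and 0.0632).

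In the IL-6 family 5 of 14 rose, 2 with the squamous covariate. The oncostatin M receptor Osmr rose by 0.89 ± 0.13 and the feedback inhibitor Socs3 by 0.64 ± 0.15 (adjusted p = 7.6e-07 and 0.00177), while the ligand Osm had a difference of 0.22 ± 0.11 (adjusted p = 0.141). Of 17 genes of the TNF family and NF-kappaB feedback 10 rose (7 with the squamous covariate). Tnf rose by 0.58 ± 0.14, its receptor Tnfrsf1b by 0.57 ± 0.095, the B cell survival factor Tnfsf13b by 0.86 ± 0.14 and the lymphotoxin subunit Ltb by 0.87 ± 0.16 (adjusted p = 0.00209, 7.89e-06, 5.08e-06 and 5.59e-05). The NF-kappaB inhibitor Nfkbia rose by 0.22 ± 0.073 (adjusted p = 0.023), a call lost with the covariate and with 2 of the 3 scalings. The IL-17 and IL-22 axis gave 3 higher and 1 lower genes of 15, a share near the 22.7% of all genes that passed. Il17a had a difference of 0.19 ± 0.11 and the soluble IL-22 inhibitor Il22ra2 of -0.11 ± 0.20 (adjusted p = 0.214 and 0.722). The epithelial receptor Il17re fell by 0.41 ± 0.082 (adjusted p = 0.000156).

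Chemokines draw leukocytes into tissue, and those with a CXC motif and their receptors rose in 14 of 18 cases (9 with the squamous covariate). Cxcl5, which attracts neutrophils, was 5.49, 6.34 and 6.57 in untreated and 6.11, 9.39 and 10.4 in AOM+DSS colon and rose by 2.59 ± 0.36 (adjusted p = 2.83e-07). Cxcl3, of the same function, was 3.62, 4.10 and 5.01 in untreated and 3.98, 7.16 and 7.85 in AOM+DSS colon and rose by 2.20 ± 0.42 (adjusted p = 9.81e-05). Cxcl9, which attracts T cells, rose by 1.55 ± 0.39, Cxcl13, which attracts B cells to follicles, by 1.05 ± 0.23, Cxcl16 by 0.50 ± 0.076 without overlap and the receptor Cxcr4 by 0.69 ± 0.13 (adjusted p = 0.00251, 0.000645, 1.91e-06 and 0.000108). Among CC chemokines and receptors 9 of 18 rose and 1 fell. Ccl8, which attracts monocytes, was 6.38, 6.97 and 7.95 in untreated and 8.38, 8.77 and 9.48 in AOM+DSS colon, a rise of 1.84 ± 0.19 without overlap (adjusted p = 4.18e-10). Ccl3 and Ccl9 rose by 1.30 ± 0.19 and 0.69 ± 0.15, and the monocyte receptors Ccr2 and Ccr1 by 1.002 ± 0.14 and 1.08 ± 0.16, both without overlap (adjusted p = 1.17e-06, 0.000418, 6.44e-07 and 1.21e-06). The epithelial chemokine Ccl28 had a difference of -0.18 ± 0.15 (adjusted p = 0.42).

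To show what lies before 2 CXC chemokine genes that sit close together on chromosome 5 and of which 1 rose, the sequences below give 60 bases around the match before each start site, 5′ to 3′ on the gene's strand (RefSeq, GRCm38.p6). Capitals mark GGGANNTTCC, a form of the NF-kappaB site, searched on both strands within 250 bases before the start. Overlapping matches on both strands were counted as a match each. The windows are chr5:90786003-90786062 and chr5:90891149-90891208, both on the plus strand.
Cxcl3: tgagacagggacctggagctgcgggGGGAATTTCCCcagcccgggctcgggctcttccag
Cxcl1: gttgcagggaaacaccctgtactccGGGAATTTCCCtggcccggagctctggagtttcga
Both held the same capital letters, at 62 and 60 bases from the start. Cxcl3 rose by 2.20 ± 0.42, whereas Cxcl1, 5.52, 5.80 and 6.10 in untreated and 5.47, 5.96 and 6.75 in AOM+DSS colon, had a difference of 0.18 ± 0.15 (adjusted p = 0.416). A listed gene was counted if any of its promoters matched, here and for the motifs below. Shares of all promoters count each promoter singly, so the units differ. Of 14 listed CXC genes with a RefSeq promoter 4 held the motif, against 1.21% of all 32851 promoters. The other two were Cxcl2, which had a difference of 0.55 ± 0.24 (adjusted p = 0.0833), and Cxcl10, which rose by 0.76 ± 0.29 (adjusted p = 0.0472), a call that did not hold when untreated replicate 2 or AOM+DSS replicate 4, among others, was left out (adjusted p = 0.0664 and 0.0902) or with the covariate (0.259). Cxcl1, Cxcl2 and Cxcl10 are named for their motif, after their values were seen.

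Interferon-stimulated genes had the highest share of members called among the 52 lists. Type I interferons signal through a receptor on most cells to STAT and IRF factors, which switch on antiviral genes. Of 27 such genes 25 rose (25 with the squamous covariate), with a median change of 0.81. The mean of the list was 7.10 to 7.97 in untreated and 7.97 to 9.10 in AOM+DSS samples, so that untreated replicate 4 just exceeded AOM+DSS replicate 1, and AOM+DSS replicate 6 was highest. Ifit1, which binds viral RNA, was 6.69, 7.08 and 8.64 in untreated and 8.55, 9.27 and 10.5 in AOM+DSS colon and rose by 2.17 ± 0.26 (adjusted p = 9.13e-09). Oasl2 and Oas2, of the oligoadenylate synthetase family, rose by 1.87 ± 0.21 and 1.76 ± 0.22 (adjusted p = 1.96e-09 and 2.3e-08). The RNA sensor-related Ddx60, outside the list and named for its small p, rose by 2.17 ± 0.22 (adjusted p = 2.61e-10). Oas3 was 6.11, 6.32 and 6.95 in untreated and 7.12, 7.69 and 8.98 in AOM+DSS colon and rose by 1.35 ± 0.17 (adjusted p = 2.13e-08). The ubiquitin-like Isg15 rose by 1.45 ± 0.22, the chaperone gene Rtp4 by 1.42 ± 0.18 and the transcription factor Irf7 by 0.93 ± 0.15 (adjusted p = 1.47e-06, 2.3e-08 and 3.85e-06). Oas3, Rtp4 and Ddx60 did not overlap between groups.

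Genes that answer to interferon-gamma, made by T and NK cells, rose in 17 of 22 cases (13 with the covariate). Ido1, which breaks down tryptophan, was 6.40, 6.80 and 8.44 in untreated and 8.43, 9.70 and 10.5 in AOM+DSS colon and rose by 2.75 ± 0.35, or 6.71-fold (adjusted p = 5.33e-08). The guanylate-binding protein Gbp3 was 5.84, 6.04 and 6.58 in untreated and 6.88, 7.37 and 8.03 in AOM+DSS colon, with no overlap, and rose by 1.38 ± 0.21 (adjusted p = 2.35e-06). Gbp9, the Fc receptor gene Fcgr1 and the pyrimidine enzyme Upp1 rose by 1.06 ± 0.19, 1.02 ± 0.15 and 0.84 ± 0.15 (adjusted p = 2.86e-05, 1.57e-06 and 2.48e-05). The transcription factor Irf1 had a difference of 0.24 ± 0.13 (adjusted p = 0.158).

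The start regions of 4 of these genes are shown because interferon-activated factors bind 2 GAAA blocks set 2 bases apart. Capitals mark GAAANNGAAA on either strand within 250 bases before the start, merged where matches overlap (RefSeq, GRCm38.p6). The windows of 60 bases, 5′ to 3′ on the gene's strand, are chr19:34640769-34640828 (plus) for Ifit1, chr4:156200856-156200915 (minus) for Isg15, chr5:120777700-120777759 (minus) for Oas3 and chr3:142559977-142560036 (plus) for Gbp3.
Ifit1: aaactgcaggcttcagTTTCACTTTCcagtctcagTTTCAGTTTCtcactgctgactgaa
Isg15: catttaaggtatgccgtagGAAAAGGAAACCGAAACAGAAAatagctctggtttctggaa
Oas3: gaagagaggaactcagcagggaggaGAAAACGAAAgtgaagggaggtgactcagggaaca
Gbp3: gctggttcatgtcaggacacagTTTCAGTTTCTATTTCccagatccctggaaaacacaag
The match nearest the start lay 75, 56, 65 and 29 bases before it. All 4 genes rose. Of 19 type I list genes with a RefSeq promoter 8 held the motif, 7 of which rose, and of 13 interferon-gamma list genes 7 held it, 6 of which rose; 2.98% of all promoters held it. The 2 genes with the motif that did not pass, named after their values were seen, were Ifit3 at -0.068 and the feedback inhibitor Socs1 at 0.15 (adjusted p = 0.684 and 0.362).

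Antigen presentation went up with interferon genes, while the general proteasome had a share of higher genes near the 12.2% of all genes. Of 16 genes of MHC class I presentation and the immunoproteasome 13 rose (10 with the covariate). Tap1, the peptide transporter, rose by 0.95 ± 0.22, the immunoproteasome subunit Psmb9 by 0.64 ± 0.17, the class I transactivator Nlrc5 by 0.92 ± 0.18 and the class I light chain B2m by 0.35 ± 0.063 (adjusted p = 0.00102, 0.00469, 0.000165 and 4.29e-05). Tapbpl, which edits the bound peptides, was 7.75, 8.01 and 8.35 in untreated and 8.47, 8.77 and 8.95 in AOM+DSS colon and rose by 0.73 ± 0.11 without overlap (adjusted p = 1.17e-06). Of 19 standard proteasome subunits 2 passed as higher, Psmd1 by 0.20 ± 0.053 and Psma1 by 0.26 ± 0.092 (adjusted p = 0.00515 and 0.0359), the latter lost with the covariate (adjusted p = 0.101) and under 2 of the 3 scalings, under which 3 subunits passed as lower. Psmb5, the standard counterpart of an immunoproteasome subunit, had a difference of -0.16 ± 0.067 (adjusted p = 0.0715). For MHC class II 10 of 12 genes rose (7 with the covariate), among them H2-Aa by 0.62 ± 0.15, its transactivator Ciita by 0.63 ± 0.15 and the B cell chaperone H2-Ob by 0.79 ± 0.17 (adjusted p = 0.00195, 0.00107 and 0.000508). Untreated replicate 4 was high in both classes: for H2-Aa and for Psmb9, 1 AOM+DSS sample exceeded it.

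Of the 52 lists, that of macrophage genes had the most members whose groups did not overlap. Of 20 measured 17 rose (14 with the covariate), and for 9 of them the groups did not overlap, against 0.821% of all genes. Cd68, a lysosomal protein, was 8.90, 9.15 and 9.60 in untreated and 9.93, 10.1 and 10.7 in AOM+DSS colon and rose by 1.03 ± 0.11 (adjusted p = 7.94e-10). The membrane protein Ms4a7 rose by 0.92 ± 0.094 without overlap (adjusted p = 2.86e-10). Outside the list, and named for their small p, the complement receptor C3ar1 rose by 1.09 ± 0.11, the pore-forming Mpeg1 by 1.20 ± 0.12 and the oxidase subunit Cybb by 1.31 ± 0.14, all without overlap (adjusted p = 1.24e-10, 1.42e-10 and 4.18e-10). Within the list, the complement components C1qa and C1qb rose by 0.76 ± 0.088 and 0.91 ± 0.10, the IgG receptor Fcgr4 by 1.51 ± 0.18 and the lipid receptor Trem2 by 0.54 ± 0.079 (adjusted p = 5.75e-09, 1.61e-09, 1.25e-08 and 1.07e-06). The 3 that did not pass included Cx3cr1, the fractalkine receptor that marks resident macrophages, at 7.83, 8.09 and 8.48 in untreated and 7.95, 8.11 and 8.30 in AOM+DSS colon (adjusted p = 0.936). The other two, named after their values were seen, were the engulfment receptor Mertk at -0.030 and the scavenger receptor Marco at 0.066 (adjusted p = 0.848 and 0.727). Of 13 dendritic cell genes 6 rose (5 with the covariate). Fscn1 and Cd80, genes of mature dendritic cells, rose by 0.46 ± 0.089 and 0.72 ± 0.15 (adjusted p = 0.000111 and 0.000202) and Flt3 by 0.34 ± 0.10 (adjusted p = 0.0141; 0.107 with the covariate), whereas the subset markers Xcr1 and Cd209a had differences of -0.10 ± 0.087 and 0.033 ± 0.093 (adjusted p = 0.408 and 0.826).

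Neutrophil genes rose in 12 of 17 cases (8 with the covariate), with wide spread between mice. Retnlg, a secreted protein of mature neutrophils, was 3.78, 4.52 and 5.56 in untreated and 5.08, 6.68 and 9.26 in AOM+DSS colon and rose by 2.19 ± 0.41 (adjusted p = 6.32e-05). The growth factor receptor Csf3r rose by 1.33 ± 0.22 and the lectin Clec4e by 1.71 ± 0.31 (adjusted p = 8.3e-06 and 4.19e-05). The granule protein genes Mmp8 and Ngp, the latter made in bone marrow precursors, had differences of 0.78 ± 0.33 and 0.14 ± 0.18 (adjusted p = 0.08 and 0.585).

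Mast cell genes rose in 7 of 12 cases and 1 fell (5 and 0 with the covariate). Mcpt1 and Mcpt2, proteases of mucosal mast cells, led. Mcpt1 was 4.21, 4.81 and 5.62 in untreated and 5.30, 7.37 and 8.68 in AOM+DSS colon and rose by 2.42 ± 0.38, or 5.37-fold, and Mcpt2 by 1.83 ± 0.35 (adjusted p = 2.59e-06 and 8.69e-05). Cpa3, a carboxypeptidase of all mast cells, was 5.64, 6.57 and 7.10 in untreated and 7.79, 8.04 and 8.84 in AOM+DSS colon, with no overlap, and rose by 1.73 ± 0.25 (adjusted p = 8.87e-07). Mcpt4, a protease of connective tissue mast cells, rose by 1.14 ± 0.26 (adjusted p = 0.001). The fall was Kit, named after its value was seen, a receptor of mast cells and of pacemaker cells in gut muscle, which fell by 0.32 ± 0.11 (adjusted p = 0.0239). It was lost with the covariate, with a shift to 1 median and without AOM+DSS replicate 7 (adjusted p = 0.255, 0.0643 and 0.0576).

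T cell and NK cell genes rose in 14 of 25 cases (12 with the covariate). Cd3e, a chain of the T cell receptor complex, was 6.74, 7.10 and 7.72 in untreated and 7.83, 8.32 and 9.00 in AOM+DSS colon, with no overlap, and rose by 1.21 ± 0.16 (adjusted p = 1.57e-07). Cd4 rose by 1.09 ± 0.16 without overlap (adjusted p = 5.6e-07) and Cd8a by 0.41 ± 0.14 (adjusted p = 0.0294), the latter lost without AOM+DSS replicate 7 (adjusted p = 0.102), untreated replicate 5 (0.0546) or untreated replicate 10 (0.0528) and with the covariate (0.101). Cd3g, the costimulator Icos and the cytotoxic granzyme Gzmb rose by 1.34 ± 0.20, 0.71 ± 0.11 and 1.05 ± 0.21 (adjusted p = 1.17e-06, 2.44e-06 and 0.000176). Foxp3, the regulatory T cell factor, had a difference of 0.32 ± 0.13 (adjusted p = 0.0586), passing without untreated replicate 4 (0.016) among others.

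B cell and follicle genes rose in 13 of 16 cases. Here the untreated mice already differed: the list mean was 5.95 to 7.21 untreated, highest in replicates 1, 8 and 4, and 6.11 to 8.27 after AOM+DSS, lowest in replicate 2. Ms4a1, the CD20 gene, was 5.14, 6.15 and 7.78 in untreated and 5.64, 8.41 and 9.43 in AOM+DSS colon and rose by 1.71 ± 0.35, Cr2, of follicular B and dendritic cells, by 1.46 ± 0.32 and the signalling adaptor Bank1 by 1.18 ± 0.24 (adjusted p = 0.000196, 0.000457 and 0.000266). Of 11 plasma cell genes 2 rose, against 12.2% of all genes. Prdm1, the factor that drives plasma cell fate and is also active in other cells, rose by 0.65 ± 0.10 (adjusted p = 3.5e-06). Jchain, Mzb1 and Tnfrsf17, which mark plasma cells more closely, had differences of 0.075 ± 0.25, 0.33 ± 0.18 and 0.029 ± 0.17 (adjusted p = 0.853, 0.187 and 0.922).

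Vessels and stroma took part. Of 16 endothelial and lymphatic genes 10 rose (4 with the covariate), the largest being adhesion molecules on which leukocytes roll and stop. Selp, P-selectin, was 6.37, 6.77 and 7.19 in untreated and 7.08, 8.97 and 9.60 in AOM+DSS colon and rose by 1.78 ± 0.24 (adjusted p = 1.82e-07). Vcam1 was 7.61, 7.94 and 8.28 in untreated and 8.28, 9.53 and 10.1 in AOM+DSS colon, with no overlap, and rose by 1.34 ± 0.15 (adjusted p = 2.84e-09). E-selectin, Sele, and the gut-homing ligand Madcam1 rose by 1.06 ± 0.20 and 0.79 ± 0.15 (adjusted p = 6.29e-05 and 4.95e-05). Vwf, of all endothelium, rose by 0.28 ± 0.091 (adjusted p = 0.0217; 0.0795 without AOM+DSS replicate 4 and 0.17 with the covariate), and the lymphatic Lyve1 had a difference of -0.0079 ± 0.13 (adjusted p = 0.973).

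Fibroblast and matrix genes rose in 17 of 24 cases, and 9 passed with the squamous covariate. Lox, which crosslinks collagen, was 6.39, 6.57 and 6.79 in untreated and 6.58, 8.08 and 9.52 in AOM+DSS colon and rose by 1.36 ± 0.20 (adjusted p = 7.23e-07). The collagen genes Col1a1, Col1a2 and Col5a2 rose by 0.64 ± 0.12, 0.69 ± 0.096 and 0.60 ± 0.094 (adjusted p = 4.26e-05, 3.01e-07 and 2.75e-06). Elastin (Eln), periostin (Postn) and tenascin C (Tnc) had differences of 0.20 ± 0.14, 0.16 ± 0.12 and 0.21 ± 0.11 (adjusted p = 0.292, 0.348 and 0.148). Of 16 matrix proteases and inhibitors 9 rose, among them the gelatinase Mmp2 by 0.66 ± 0.10, the stromelysins Mmp10 by 1.13 ± 0.22 and Mmp3 by 0.87 ± 0.27 and the inhibitor Timp1 by 0.79 ± 0.13 (adjusted p = 1.57e-06, 0.000108, 0.0155 and 4.8e-06). Without AOM+DSS replicate 4, the highest for several matrix genes, Mmp3 had an adjusted p of 0.0502. With the squamous covariate 6 of the list passed as higher, and Mmp3 was at 0.64 ± 0.30 (adjusted p = 0.152). Serpinb2, an inhibitor of plasminogen activation found in squamous epithelium too, rose by 1.90 ± 0.39 (adjusted p = 0.000248) and did not pass with the covariate (adjusted p = 0.0579).

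**Figure D4:**
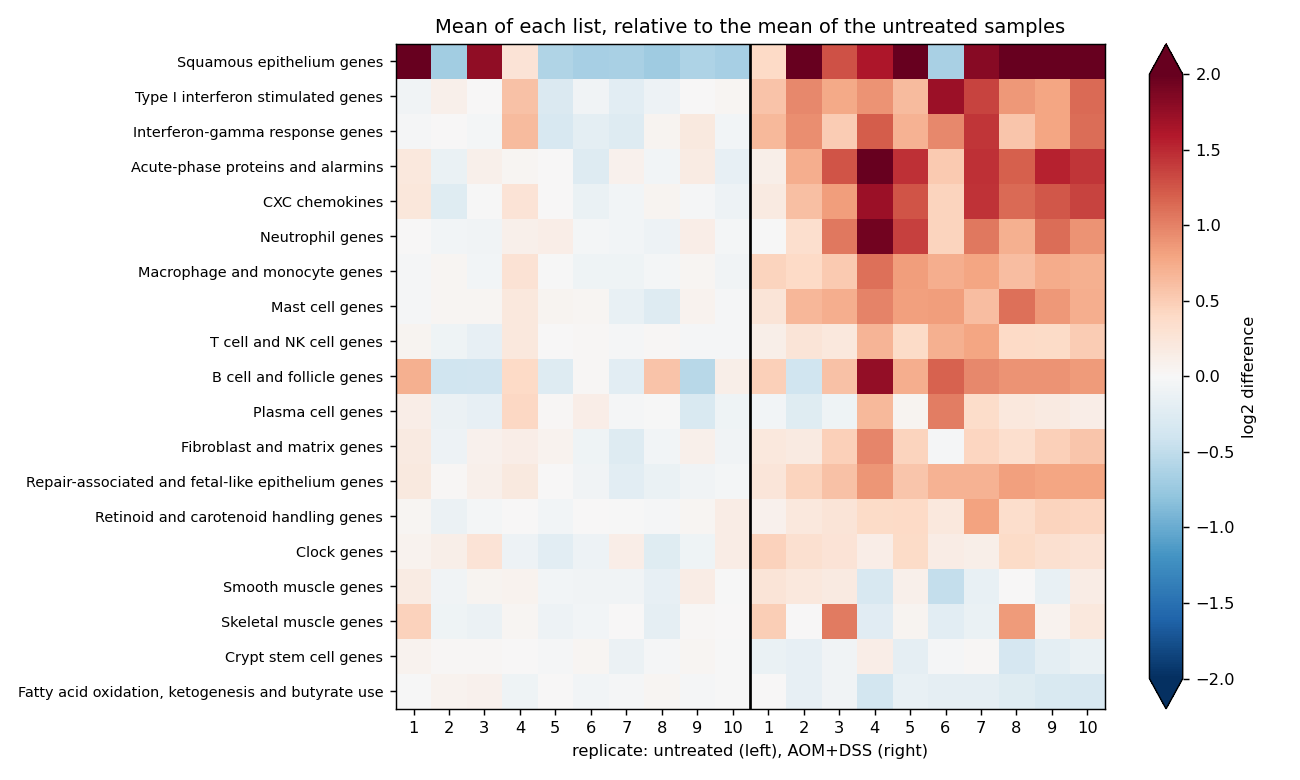
Colour shows the mean log2 level of each gene list (rows) in each fl/fl colon sample (columns, by replicate; untreated left of the line) minus the mean over the 10 untreated samples. Squamous genes are high in untreated replicates 1 and 3 and low in AOM+DSS replicate 6, which is highest in type I interferon genes at 9.10.

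Squamous epithelium genes rose in 14 of 20 cases. Krt14, the keratin of basal squamous cells, was 5.71, 6.19 and 8.63 in untreated and 5.58, 10.04 and 11.1 in AOM+DSS colon and rose by 2.97 ± 0.53 (adjusted p = 3.02e-05). Krt6a, a keratin of healing squamous epithelium, rose by 3.73 ± 0.86, Krt13, of its upper layers, by 2.53 ± 0.68, the cadherin Dsg3 by 2.16 ± 0.47 and the squamous master regulator Trp63 by 0.69 ± 0.22 (adjusted p = 0.000966, 0.00473, 0.000468 and 0.0194). Psca, a surface protein, was 5.42, 5.90 and 11.4 in untreated and 5.45, 10.9 and 11.6 in AOM+DSS colon: untreated replicates 1, 3 and 4 stood at 11.4, 10.4 and 8.75, and AOM+DSS replicate 6 was at 5.45 (adjusted p = 0.009). The rise of Psca was 3.17 ± 0.92. Without untreated replicates 1 and 3 it was 4.12 ± 0.91, and without AOM+DSS replicate 6 it was 3.70 ± 0.90; these samples were picked for their squamous levels, so the larger values follow from that choice. Ly6d and Krt17 are also made outside squamous epithelium; they rose by 2.10 ± 0.29 and 1.39 ± 0.25 (adjusted p = 1.88e-07 and 3e-05), and Ly6d was 8.02 or more in every AOM+DSS sample, replicate 6 included.

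Some of the largest rises were smaller with the squamous covariate. Ppbp, a chemokine precursor of platelets, was 5.08, 5.57 and 10.3 in untreated and 5.33, 12.1 and 12.7 in AOM+DSS colon; its untreated values of 10.3, 9.46 and 7.70 came from replicates 1, 3 and 4, and AOM+DSS replicate 6 was at 5.33. Its rise was 4.54 ± 0.90 (adjusted p = 0.000145), or 1.37 ± 0.41 with the covariate (adjusted p = 0.0176). No other of 9 platelet genes rose. Ltf (lactoferrin) rose by 2.76 ± 0.71 (adjusted p = 0.0032), and by 0.35 ± 0.38 with the covariate (adjusted p = 0.577). The protease Tmprss11g rose by 3.22 ± 0.70 (adjusted p = 0.000472). It is a member of the squamous list, so its 0.81 ± 0.34 with the covariate (adjusted p = 0.108) carries no information. Of the 210 genes with a rise of at least 2-fold, 43 did not pass with the covariate, members of the squamous list such as Krt6a and Psca among them. Spink5, a protease inhibitor of squamous epithelium named after its value was seen, went from 1.63 ± 0.57 to -0.51 ± 0.15 (adjusted p = 0.0327 and 0.0154).

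**Figure D5:**
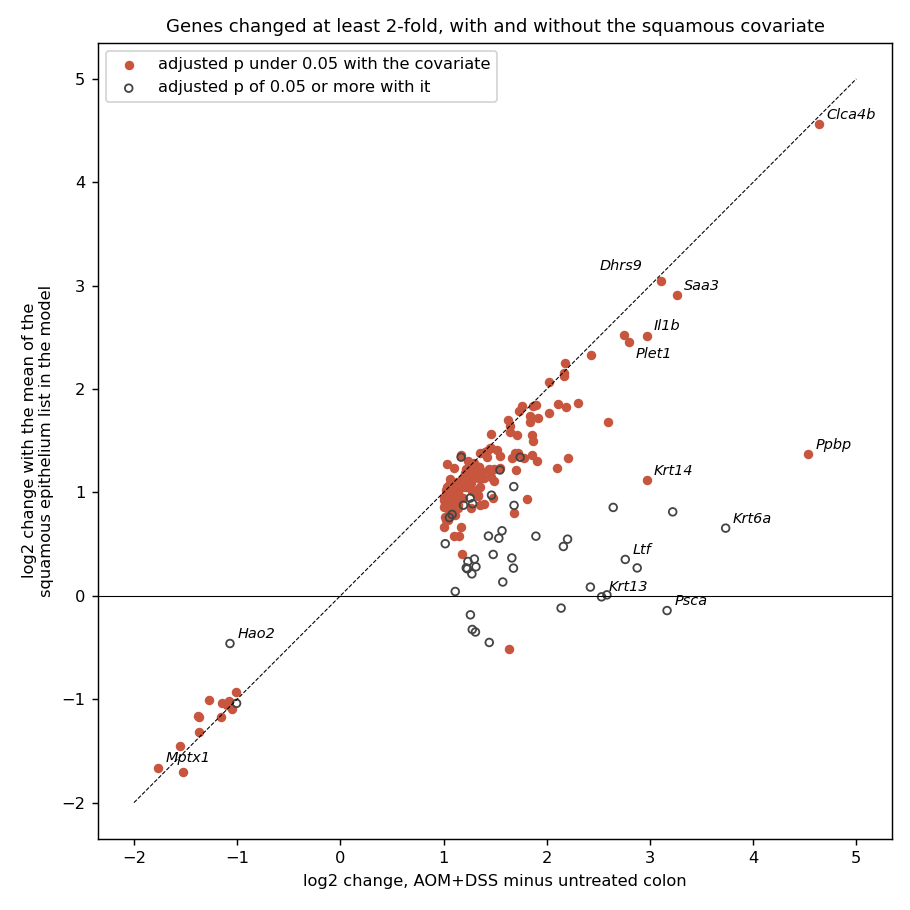
Log2 change of the 225 genes that changed at least 2-fold (x axis) against the change when the mean of the squamous list is in the model (y axis); filled points keep an adjusted p under 0.05 and the dashed line marks equal values. Clca4b stays at 4.56 ± 0.47 and Ppbp goes to 1.37 ± 0.41; squamous genes such as Psca make up the covariate themselves.

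The samples of each group also ranked differently on the 210 genes that rose at least 2-fold. These genes were picked by the same comparison, and the cause of the ranks was not tested. For the 210 genes, the lowest AOM+DSS sample was replicate 1 in 92 cases, replicate 2 in 49 and replicate 6 in 42, and never replicate 4, 7 or 10. Among the untreated samples replicate 1 was highest in 77 cases and replicate 4 in 50. Without AOM+DSS replicate 1, 232 genes rose at least 2-fold, and without replicate 4, 168. The list means show different mice leading in different groups: AOM+DSS replicate 4 was highest for the macrophage, B cell and neutrophil lists, and replicate 6 for type I interferon genes. Skeletal muscle genes, which would come from muscle around the anus, were highest in AOM+DSS replicates 3, 8 and 1 (6.87, 6.69 and 6.32) and untreated replicate 1 (6.29), and 2 of 12 passed as higher; their part in the squamous result was not tested.

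Clock genes moved in both directions. In this transcription loop CLOCK and its partner ARNTL (or NPAS2 in place of CLOCK) switch on Per, Cry and other repressors through the E-box CACGTG, and these in turn shut CLOCK and ARNTL down. Of 15 measured 9 rose and 3 fell. The activators fell: Arntl was 8.89, 9.70 and 10.4 in untreated and 8.46, 9.06 and 9.18 in AOM+DSS colon and fell by 0.81 ± 0.17, Npas2 fell by 0.93 ± 0.17 and Clock, named after its value was seen, fell by 0.24 ± 0.056 (adjusted p = 0.000211, 3.42e-05 and 0.00106). The repressors Per1 and Per3 rose by 0.72 ± 0.14 and 0.59 ± 0.14, the output factor Dbp by 0.92 ± 0.30 and Nr1d2, which represses Arntl, by 0.65 ± 0.14 (adjusted p = 0.000104, 0.000939, 0.0194 and 0.000323). With the squamous covariate 6 clock genes passed as higher and 3 as lower, and Dbp was at 0.62 ± 0.32 (adjusted p = 0.204). Per1 was 8.25, 8.89 and 9.53 in untreated and 9.26, 9.59 and 9.95 in AOM+DSS colon. Nr1d1, the paralog of Nr1d2, had a difference of -0.35 ± 0.23 (adjusted p = 0.271). The time of day at which each mouse was killed is not given in the sources used here, and its part in this result was not tested.

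The E-boxes before Per1 and Ciart, a further repressor of the loop, are shown as 60-base windows on the gene's strand with CACGTG in capitals (RefSeq, GRCm38.p6), chr11:69098756-69098815 (plus) and chr3:95882240-95882299 (minus).
Per1: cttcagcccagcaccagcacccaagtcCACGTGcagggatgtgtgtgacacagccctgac
Ciart: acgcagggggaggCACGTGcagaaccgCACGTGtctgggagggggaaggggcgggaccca
The nearest match lay 160 bases before the start of Per1 and 38 before that of Ciart, which holds the motif at 2 places. Ciart, named after its value was seen, rose by 0.94 ± 0.22 (adjusted p = 0.00123). Of 15 clock genes with a RefSeq promoter 5 held CACGTG within 250 bases before the start, all 5 of which rose, against 6.02% of all promoters. The motif reads alike on both strands, so each site was counted once.

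In knockout mice the same treatment called 3538 genes higher (16.0%) and 3154 lower (14.2%), against that genotype's own untreated samples. Of the genes that rose in fl/fl colon 2335 also rose there, 86.0% of the fl/fl list and 66.0% of the knockout list; of those that fell 1349 also fell, 57.9% and 42.8%. In each direction 1 gene passed the opposite way. In limma's interaction test 0 genes (0.0%) passed for the difference between the 2 responses: the smallest adjusted p was 0.576 and 1351 genes had an unadjusted p under 0.05 (6.09%). The 5 with the smallest unadjusted p were Tiam2, Treml2, Pm20d1, Klhl23 and Ikzf4. Treml2, a receptor of myeloid and B cells, had a difference of 0.37 ± 0.15 in fl/fl and 1.21 ± 0.15 in knockout colon, and Pm20d1, a secreted enzyme, differences of -0.44 ± 0.12 and -1.13 ± 0.12. Tiam2, Klhl23 and Ikzf4 had differences of 0.21 ± 0.076, 0.048 ± 0.080 and -0.40 ± 0.083 in fl/fl and -0.25 ± 0.076, -0.40 ± 0.080 and 0.065 ± 0.083 in knockout colon. A difference that misses the threshold does not show that both genotypes respond alike. Clca4b rose by 4.05 ± 0.41 in knockout colon, Il1b by 3.29 ± 0.33, Ido1 by 2.40 ± 0.35 and Lgr5 changed by -0.41 ± 0.13. The interaction gave -0.58 ± 0.58, 0.32 ± 0.47, -0.35 ± 0.50 and 0.36 ± 0.18 (knockout minus fl/fl; adjusted p = 0.903, 0.938, 0.936 and 0.812).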

How the data were processed

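RNA from pieces of distal colon or tumor was labelled with biotin (WT Plus kit) and hybridised to Affymetrix whole-transcript arrays, 1 per sample. Per the submitters' processing notes the authors used RMA, which corrects background, quantile-normalizes across arrays and summarises probe sets, and the deposited values are on the log2 scale. No RMA version is given in the sources used here. Samples are biological replicates per the labels.

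Of 41345 probe sets, 23521 had exactly 1 gene symbol in the platform annotation, 1814 had several and 16010 were unnamed; the 23521 gave 22180 genes. Where a gene had more than 1 (1082 genes), the brightest over all arrays was kept. limma 3.58.1 in R 4.3.3 fitted 6 groups over all 57 arrays (51 residual degrees of freedom). Contrasts were two-sided, and p-values were adjusted by Benjamini-Hochberg over 22180 genes with a threshold of 0.05. Every adjusted p printed is from this fit unless another is named. The number of arrays limits the precision. The script was tested on simulated data with 200 changed genes.

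Named genes were drawn from Insr, the 12 largest rises and falls, the 10 smallest p in each direction, set anchor genes of each list with up to 3 further members by smallest p, and the 5 smallest p of the genotype difference. Not every gene that these rules gave is named in the text, so the falls and small p values shown are not the full set. Predicted models, clones and receptor segments were counted only. Genes and lists were chosen with earlier results of these data known. Promoters were RefSeq sequences (GRCm38.p6), searched over 250 bases before the start. Alternatives covered scaling, probe set choice, dim genes (mean under log2 5), the variance model, array weights, samples fitted, the replicate number as a block and list means as covariates. Leaving samples out and the shift to 1 median of the 22180 genes were added after seeing the data.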

Additional observations from a re-analysis of the deposited data

Results flagged for a closer look

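In groups of 10, 43 of 498 searched sets of values held a sample whose gap to the next was wide for the range of its group. The cutoff gives about 1 in 20 for independent, normally distributed values. Many sets here are genes that vary together, so no excess over chance follows from the count. Values are log2, with the next sample's beside each. Untreated replicate 4 stood highest in genes of interferon response and antigen presentation, and in the list means of 2 groups: Ddx60 (7.89, next 7.02), Duox2 (10.04, next 9.65), Ifit1 (8.64, next 7.68), Oasl2 (10.0, next 9.04), Irf7 (9.92, next 9.22), Ido1 (8.44, next 7.20), Tap1 (9.54, next 8.60), Psmb9 (8.78, next 7.96), Nlrc5 (6.29, next 5.91), H2-Aa (10.8, next 10.2), Socs1 (6.75, next 6.29), Type I interferon stimulated genes (7.97, next 7.49) and Macrophage and monocyte genes (7.94, next 7.70). The same sample was lowest in Il1rn (8.31, next 8.48) and Lyve1 (10.4, next 10.5). AOM+DSS replicate 4 was highest in matrix, vessel and myeloid genes: Lyz2 (11.7, next 11.2), Ngp (5.39, next 4.84), Col1a1 (11.2, next 10.4), Eln (8.82, next 8.03), Col5a2 (8.83, next 8.23), Vwf (8.10, next 7.49) and Igfbp4 (11.01, next 10.3). It was lowest in the epithelial genes Ccl28 (10.6, next 11.04) and Slc5a8 (11.2, next 11.7). AOM+DSS replicate 7 was highest in Reg3g (11.02, next 7.49), Cd8a (6.85, next 6.01), Gzmb (7.30, next 6.00) and Mertk (9.65, next 9.12). Replicate 6 of that group was highest in Oas3 (8.98, next 8.11), Tnfrsf17 (7.07, next 6.17) and Guca2a (12.2, next 11.5). It was lowest in Psca (5.45, next 8.93). AOM+DSS replicate 1 was lowest in Cwh43 (7.16, next 8.38), Slpi (7.50, next 8.58) and Ido1 (8.43, next 9.41). AOM+DSS replicate 2 was lowest in Il22ra2 (4.69, next 5.39) and Clu (8.51, next 9.28). AOM+DSS replicate 5 was lowest in Ifit3 (5.69, next 6.16). Among untreated samples, replicate 1 was highest in Cd80 (6.95, next 6.32) and Skeletal muscle genes (6.29, next 5.87). Untreated replicate 8 was highest in Ascl2 (8.35, next 7.86). Untreated replicate 2 was lowest in Cxcl5 (5.49, next 6.06). Untreated replicate 3 was lowest in Cldn2 (6.22, next 6.40). Causes were not tested.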

How the results depend on the processing

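Of the 242 named genes, 189 passed the threshold. Over 12 alternatives, leaving out single samples aside, 2799 values kept their direction and side of the threshold, 44 lost a call, 30 gained one and 28 changed sign. The squamous covariate accounted for 29 of the 44 lost calls and 13 of the 28 changes of sign. Members of the squamous list, which make up the covariate, are among both: Krt6a, Tmprss11g and Dsg3 lost calls, and Psca, Krt13 and Trp63 changed sign. It left 2845 genes called, 1716 higher and 1129 lower. The number of lower genes was 1254 after shifting all probe sets to 1 median and 3839 after shifting the 22180 genes; the cause was not tested. The other alternatives gave 4693 to 5770 calls. Leaving out 1 sample gave 4213 (AOM+DSS replicate 7) to 5579 (AOM+DSS replicate 2) calls, 2341 to 2915 of them higher and 1805 to 2664 lower, and no gene passed for the difference between genotypes.

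Replicate numbers did not pair the samples: deviations of same-numbered samples correlated between -0.126 and 0.212 over 10 pairs (median -0.0097), 3 of them over 0.1, and 2 untreated samples correlated best with their own number. With the replicate number as a block 5438 genes passed, 2900 higher and 2538 lower. It moved no count of all genes by over 1.5 times.

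Signs changed with the squamous covariate for Psca (-0.14), Krt13 (-0.0098), Trp63 (-0.078), Spink5 (-0.51), Slc26a3 (0.24), Car4 (0.040), Cldn15 (0.31), Ccl28 (0.028), Cx3cr1 (0.076), Abcg2 (0.057), Mertk (0.039), Igf1r (-0.073) and Klhl23 (-0.016). Array weights gave Cx3cr1 0.023 and Tnfrsf17 -0.0093. Quantile normalization gave Irs2 -0.028 and Klhl23 -0.020, and the mean of probe sets gave Cd209a -0.0019. The shift of all probe sets gave Cx3cr1 0.030, Lyve1 0.033, Cldn15 0.026 and Mertk 0.011, and that of the 22180 genes gave Cd209a -0.0075 and Tnfrsf17 -0.011. The smooth muscle covariate gave Lyve1 0.0027. Without untreated replicates 1 and 3, Tnfrsf17 was -0.023, Lyve1 1.9e-05 and Mertk 0.0082. Leaving out single samples gave ranges across 0 for Irs2 (-0.015 to 0.10), Il22ra2 (-0.21 to 0.013), Lyve1 (-0.064 to 0.045), Cldn15 (-0.12 to 0.034), Tnfrsf17 (-0.10 to 0.095), Cd209a (-0.0072 to 0.082), Mertk (-0.11 to 0.013), Jchain (-0.035 to 0.20), Cx3cr1 (-0.043 to 0.029) and Ifit3 (-0.11 to 0.0017). Of these genes, Psca, Krt13, Trp63 and Spink5 had passed the threshold. The cause was not tested.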
